A study of Cercocebus atys with 16 samples.

Results

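The response of double-negative T cells to stimulation was described in sooty mangabeys whose CD4 status was labelled normal. The material was the arrays that set stimulated against unstimulated RNA of the animals FNV and FKN, 4 of the 16 arrays of the series, chosen by the status and the pair of conditions in their titles. Both animals were SIV-infected sooty mangabeys (Cercocebus atys), each with 2 such arrays in opposite dye orientation, so n = 2 animals. The comparison group was the same kind of array, 4 in all, of FBR and FTV, which were also SIV-infected and whose CD4 status was labelled low; the series held 4 animals in all, and it had no uninfected animal. In both groups the cells were CD3+CD4-CD8- T cells of blood, isolated with magnetic beads after removal of CD4, CD8 and CD16 bearing cells, used above 98% purity and rested overnight. They were then kept without stimulus or given anti-CD3 (3 mg/ml as the labels write it) plus anti-CD28 (1 mg/ml) for 4 hours. The animals' ages were not given in the sources used here.

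Antibody to CD3 engages the T cell receptor complex, and antibody to CD28 supplies costimulation. Together they open calcium entry and activate NFAT, AP-1 and NF-kB, which within hours switch on cytokine, chemokine and receptor genes, while genes that hold resting cells quiescent are turned down and growth genes are turned up. Sooty mangabeys are natural hosts of SIV that usually stay free of AIDS, even after loss of CD4 T cells, and their double-negative T cells have been studied as a source of helper functions.

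Transcripts were read by 60-base probes designed on the rhesus macaque genome (rheMac2), and some results depend on which probe stands for a gene. The first 30 bases of the probes of the 3 largest rises, of EDN1 and IL2, which also stand among the differences from the CD4-low animals described last, and of both probes of 4 genes whose probes disagreed are given here in the letters of the files, 5′ to 3′, all in lower case because no part is singled out.
IL5: ctagactacctgcaagagtttcttggtgta
IL22: aaacaattgtctttttccgtaaagaagatt
IFNG: atgaactcatccaagtgatggctgaactgt
IL2: ttgtcaaagcatcatctcaacactgacctg
EDN1: attccaagaaaggttaaggagttcccccaa
IL10, tested probe: gaattgattcaattcctctgggaatgttac
IL10, other probe: acaacatattgttaaaggagtccttgctgg
CALHM2, tested probe: ttatggtactttgcgcagttaacgtgtcta
CALHM2, other probe: caggtgcgtggtggggcaagggctatttcc
PIK3IP1, tested probe: tgttttatatacctcattctgacacctgca
PIK3IP1, other probe: ttgttccccattttacaaacgaagaagcct
ACCN2, tested probe: atgaggccaaaaagtgtgcattggataggg
ACCN2, other probe: gatacagactctatattgctatatctctgt
The files place the IL5 probe at chr6:128945942-128946001, the IL22 probe at chr11:65239508-65239567, the IFNG probe at chr11:65144018-65144077 and the IL2 probe at chr5:114846887-114846946, all on the minus strand. The EDN1 probe lies at chr4:12273484-12273543 on the plus strand. An annotation of exons and untranslated regions for this build was not used here.

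The pairs of probes differed in size and, for ACCN2, in whether any change was measured. For IL10, an anti-inflammatory cytokine, the mean log2 change was 4.18 at chr1:163592963-163593022 and 1.40 at a probe 3762 bases away, and both passed the test. CALHM2, a channel gene, stood at -3.30 with the probe at chr9:103140106-103140165 and at -0.49 with a probe 2773 bases away, which was well above background in 2 of 4 stimulated channels and did not pass (limma adjusted p = 0.122). PIK3IP1, an inhibitor of PI3 kinase, stood at -2.83 with the probe at chr10:75165360-75165419 and at -0.99 with one 10100 bases away (adjusted p = 0.0606). ACCN2, an acid-sensing channel gene, stood at -2.64 with the probe at chr11:47209601-47209660 and at -0.02 with one 972 bases away (adjusted p = 0.884). The tested probe was the brighter one of each pair. Probes of other genes differed in size as well. Those of PTGS2 read 4.75 and 2.25, of CSPG5 -3.15 and -1.61, and of CD79B -2.92 and -1.88, with the tested probe first. All of these passed. Of the 133 genes named here that passed, 63 had more than 1 probe, all probes pointed the same way in 62 of them, and in 46 every probe passed. The calls of PTPN6, CXCL1, IL15RA, STAT5A, BTG1, PFKL, HMGCS1 and CDK4 were among those with a probe that pointed the same way and did not pass. In MCL1 the other probe pointed up, at 0.27 against -0.56.

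Each value below is the log2 ratio of stimulated over unstimulated RNA, so that 1 is a doubling. With both dye orientations turned to the same sign, the 2 arrays of an animal correlated across features at 0.92 in FNV and 0.94 in FKN, and their median gap was 0.13 in both. On 1 of the FNV arrays a label of channel 2 disagreed with the array's title, and the title was followed. FNV was scanned earlier than the other 3 animals, on another scanner, and its ratio arrays were dimmer, with a median Cy3 intensity of 34.6 to 45.4 against 76.3 to 78.6 in FKN. The share of spots well above background was 54.3% to 64.8% in FNV and 58.2% to 60.8% in FKN. Slide, scan and animal could not be told apart. A "rise" or "fall" is a change with a limma adjusted p under 0.05, from a fit over all 4 animals that share 1 estimate of the spread, tested for the mean of FNV and FKN.

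Stimulation changed a large part of what was measured. Of 19886 tested features, 3801 passed (19.1%), 1711 upward (8.60%) and 2090 downward (10.5%), and 8085 of the tested features had a gene symbol. Of the 3801, 1783 had no symbol. The gene lists below hold only genes with a symbol, while the shares of all features set beside them include features without one. Of the features that passed, 3800 had the same sign in all 4 arrays. The test used these same arrays, so this follows largely from passing and is no separate evidence. Among all tested features, 55.2% had the same sign in all 4 arrays. Rises of at least 2-fold numbered 667 and falls of that size 750, and at 8-fold the counts were 23 rises and 4 falls, so the largest changes were rises. The median of all features was -0.03. The count rested on the spread of all 4 animals: with FNV and FKN alone, or without FBR or without FTV, 1354 features passed, and without FKN 2264. With arrays centred on the median in place of loess, 514 passed, 105 upward (20.4% of the calls against 45% with loess), and the median of all features moved to -0.13. With both conditions compared as unpaired levels, without the animal as a replicate block, 0 passed in limma, with 2494 at an unadjusted p under 0.05.

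FNV and FKN shared the direction of most large changes but differed in size. Their responses correlated across features at 0.74, and 483 features were at least 2-fold higher and 491 at least 2-fold lower in both. FNV moved 1563 features by 2-fold or more and FKN 2204, and 2 features moved by that much in opposite directions. The responses of FKN correlated at 0.91 with those of FBR and at 0.91 with those of FTV, while FNV correlated at 0.76 and 0.69 with them. Features within an animal are not independent, so these coefficients are descriptions without a test.

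**Figure D1:**
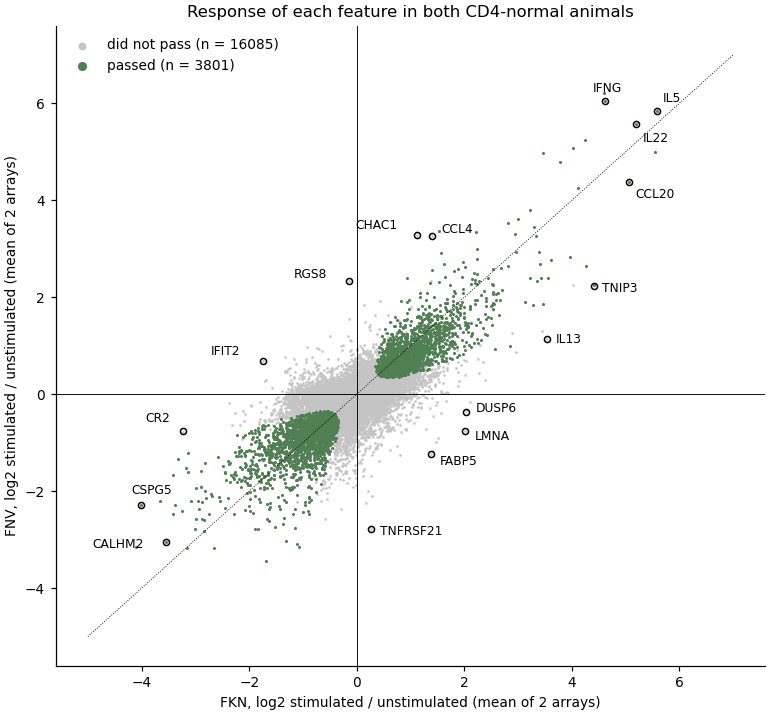
Log2 ratio of stimulated over unstimulated RNA of each tested feature in FKN (horizontal) and FNV (vertical), means of 2 arrays; 3801 features that passed the limma test are green, the other 16085 grey, circled genes are named in the text and the dotted line marks equal responses. IFNG, IL5 and IL22 lie at the upper right in both animals, while TNFRSF21, LMNA, DUSP6 and FABP5 lie below 0 in FNV and above 0 in FKN.

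Secreted cytokine genes made the largest rises. Of 28 genes on the list, 25 had a probe, 24 were tested, 13 rose and 1 fell, with a median of 1.97 against -0.03 for all features. The rises were 54.2% of the tested members, against 8.60% of all features. Of the 24, IL3, IL13, IL21 and IL31 were tested through their stimulated channels alone, since not all of their unstimulated channels were well above background; none of the 4 passed in limma (adjusted p from 0.0519 to 0.129), and the median of the other 20 was 2.03. CXCL9 was the only member of any list that passed after being tested through 1 condition alone. IL5, the eosinophil growth factor of Th2 cells, read 5.81 and 5.87 on the arrays of FNV and 5.30 and 5.85 on those of FKN. Its mean of 5.71 ± 0.18 (SD, n = 2; 52.3-fold) had a limma adjusted p of 0.011, and the animals overlapped. IL22, which acts on epithelial cells, read 5.73 and 5.43 in FNV and 5.13 and 5.26 in FKN, a mean of 5.39 ± 0.27 (41.9-fold). IFNG, the interferon that activates macrophages, read 6.29 and 5.79 in FNV and 4.47 and 4.77 in FKN. FNV lay above FKN on every array, and the mean was 5.33 ± 1.00 (40.2-fold, adjusted p = 0.011).

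IL4, the cytokine that steers Th2 differentiation, read 5.16 and 4.98 in FNV and 3.76 and 4.30 in FKN, a mean of 4.55 ± 0.74 (23.4-fold). IL10 read 4.33 and 4.17 in FNV and 3.84 and 4.39 in FKN, and its mean was 4.18 ± 0.10. IL17A, the neutrophil-recruiting cytokine of Th17 cells, had almost the same mean in both animals, 3.26 in FNV and 3.33 in FKN, although the arrays of FKN ranged from 2.95 to 3.71. IL2, the T cell growth factor, read 3.70 and 3.51 in FNV and 2.91 and 3.08 in FKN, a mean of 3.30 ± 0.43 (9.84-fold, adjusted p = 0.0113). Genes of Th1, Th2 and Th17 cytokines stood side by side among the largest rises. IL16, a cytokine gene that resting lymphocytes express, was the 1 that fell: -2.48 and -2.68 in FNV, -2.77 and -2.99 in FKN (mean -2.73 ± 0.21, adjusted p = 0.011). IL13, the other main Th2 effector, did not pass (adjusted p = 0.0553); it read 1.06 and 1.23 in FNV against 3.57 and 3.49 in FKN, 2 of its 4 unstimulated channels were well above background, and the gap between the animals depends on the background treatment, as given below.

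Among chemokine genes, 22 were listed, 18 had a probe, 17 were tested, 8 rose and 2 fell (47.1% and 11.8%, against 8.60% and 10.5% of all features), with a median of 1.92. CXCL9 and CXCL13 were tested through their stimulated channels alone, and the other 15 had 7 rises and a median of 1.67. CCL20, the ligand of the Th17 receptor CCR6, read 4.51 and 4.24 in FNV and 4.75 and 5.37 in FKN, a mean of 4.72 ± 0.49 (26.3-fold, adjusted p = 0.011). XCL1, a chemokine that draws cross-presenting dendritic cells, had a mean of 3.16 ± 0.31. The ligands of CXCR3, which interferon-gamma induces in many cells, rose together. CXCL11 averaged 4.80 in FNV and 3.78 in FKN over each animal's 2 arrays, and CXCL10 read 3.95 and 3.66 against 3.19 and 3.26. CXCL9 had the opposite order of animals, at 2.81 and 2.47 in FNV and 4.42 and 4.12 in FKN, with 2 of 4 unstimulated channels well above background, so its size is less certain. CXCL3 and CXCL1, neutrophil chemokines, fell, with means of -0.86 ± 0.31 and -0.65 ± 0.24. CCL4, a chemokine of activated T cells, did not pass (adjusted p = 0.0539): it averaged 3.26 over the arrays of FNV and 1.40 over those of FKN.

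Outside these lists, PTGS2, the inducible cyclooxygenase, was among the largest rises, with 5.50 and 4.99 in FNV and 4.30 and 4.20 in FKN (mean 4.75 ± 0.70, 26.8-fold). The other PTGS2 probe had a mean of 2.25. EDN1, the vasoconstrictor peptide endothelin, was close in both animals, at 3.51 and 3.40 in FNV and 3.21 and 3.37 in FKN (mean 3.37 ± 0.12, 10.3-fold, adjusted p = 0.0102). All of the 15 largest rises had positive values on all 4 arrays, as the rule for naming them required. Their sizes and order depend on the processing, and all were larger in the authors' deposited log2 ratios. There the means were 4.45 for EDN1, 5.34 for CXCL9 and 3.96 for IL17A, against 3.37, 3.45 and 3.30 here.

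**Figure D2:**
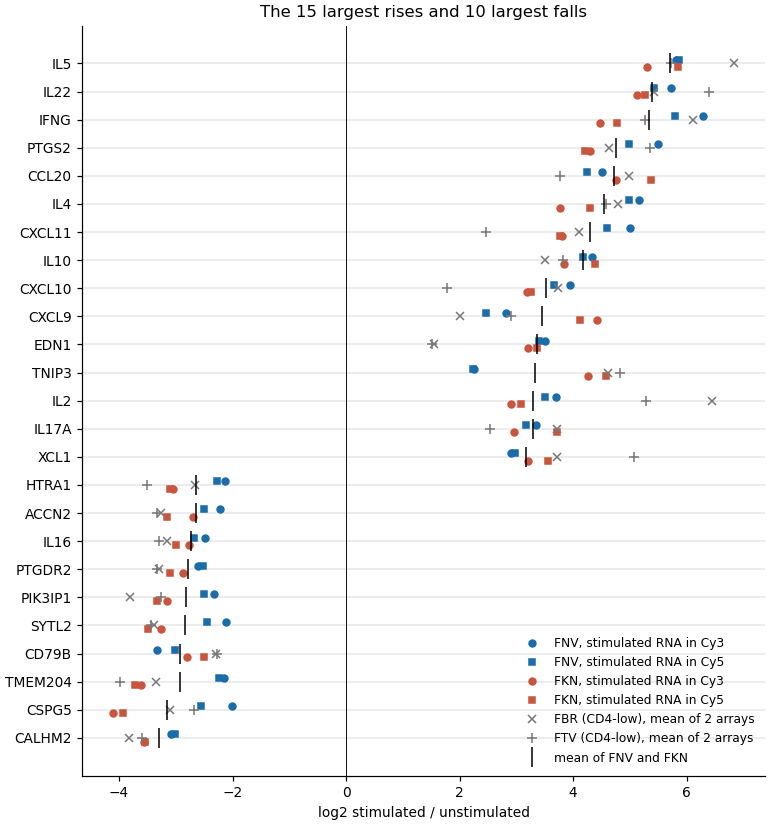
Log2 ratios of stimulated over unstimulated RNA for the 15 largest rises and the 10 largest falls, with both arrays of FNV (blue) and FKN (red) by the dye of the stimulated RNA, their mean (black bar) and the array means of FBR and FTV (grey). The points of each animal lie close together, and FNV and FKN are apart for IFNG, TNIP3, CXCL9 and CSPG5. Both CD4-low animals lie outside the range of FNV and FKN for several genes, IL2, EDN1, XCL1, IL16 and PTGDR2 among them.

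Of 18 genes of the receptor complex and its coreceptors, 11 had a probe and all 11 were tested; 1 rose (9.09%, against 8.60% of all features), CD2, an adhesion receptor, by a mean of 0.48 ± 0.09, and 0 fell in limma. The signal chain CD3D stood at 1.04 and 1.03 in FNV and 0.57 and 0.69 in FKN and did not pass (adjusted p = 0.0566). Of 26 proximal signalling genes 25 were tested, 1 rose and 3 fell, shares near the 8.60% and 10.5% of all features, with a median of -0.25. SLA, an adaptor that promotes receptor turnover, rose by 1.82 ± 0.07. PLCG1, the phospholipase that feeds calcium and RAS signals, fell by 1.06, DGKZ, which removes diacylglycerol, fell by 0.73, and the phosphatase PTPN6 fell by 0.62. Of 13 genes of the NFAT and calcineurin arm, 10 were tested, 0 rose and 2 fell by the limma test (20.0%, against 10.5% of all features). These were STIM1, the calcium sensor of the endoplasmic reticulum, at -1.50 ± 0.39, and PPP3CA, a calcineurin catalytic subunit, at -0.95 ± 0.10. The other PPP3CA probe read -0.38 and did not pass.

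Of 24 immediate early and AP-1 genes, 21 were tested, 9 rose (42.9%, against 8.60% of all features) and 0 fell, 12 did not pass, and the median was 0.99. BATF, an AP-1 factor of T helper differentiation, read 2.70 and 2.77 in FNV and 1.97 and 1.97 in FKN (mean 2.35 ± 0.54). BATF3, its relative, had the opposite order, 1.84 and 2.07 against 2.53 and 2.80. FOSL2 rose by 1.79 ± 0.14 and MYC, the growth regulator, by 1.72 ± 0.41. JUN did not pass and was negative in both animals, at -0.40 in FNV and -2.07 in FKN; FOS had opposite signs, -0.72 and 0.90.

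Of 20 NF-kB subunits and inhibitors, 18 were tested, 9 rose and 0 fell, 9 did not pass, and the median was 0.90. Among all features, 8.60% rose and 10.5% fell. TNIP3, an inhibitor that NF-kB itself induces, read 2.25 and 2.24 in FNV and 4.26 and 4.58 in FKN (mean 3.33 ± 1.54, adjusted p = 0.02). RIPK2, a kinase that feeds NF-kB, read 2.49 and 2.19 against 3.48 and 3.24 (mean 2.85 ± 0.72). BIRC3, a ubiquitin ligase of the pathway, was higher in FNV, at 2.32 and 2.26 against 1.36 and 1.38. NFKBIA, the prototype inhibitor, overlapped between animals, at 1.46 and 1.82 against 1.24 and 1.73, with a mean of 1.56 ± 0.11.

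Of 29 costimulatory and checkpoint receptor genes 28 were tested, 13 rose, 1 fell and 14 did not pass, with a median of 0.62. The rises were 46.4% and the falls 3.57% of the members, against 8.60% and 10.5% of all features. CTLA4, the inhibitory receptor for CD80 and CD86, read 2.48 and 2.31 in FNV and 3.32 and 3.12 in FKN (mean 2.81 ± 0.58). TNFRSF9 (4-1BB) read 1.92 and 1.79 against 3.69 and 3.22, so FKN was higher on each array. TNFRSF4 (OX40) rose by 2.43 ± 0.40 and ICOS by 2.32 ± 0.43, the latter higher in FNV. CD27, a costimulatory receptor of resting cells, was the 1 that fell, at -1.73 and -1.60 in FNV and -1.49 and -1.59 in FKN.

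Of 31 cytokine receptor genes 28 were tested, 2 rose and 4 fell, and the median was 0.10. These shares, 7.14% and 14.3%, are near the 8.60% and 10.5% of all features. IL2RA, the chain that gives the IL-2 receptor its high affinity, read 2.58 and 2.62 in FNV and 2.57 and 2.77 in FKN, a mean of 2.64 ± 0.05. IL15RA rose by 1.80 ± 0.16. IL9R fell by 1.15, TGFBR3 by 0.85 and IL7R, the receptor for the survival cytokine IL-7, by 0.75. The fall of IL9R rests on 1 of its 3 probes, which ranged from -1.15 to -0.10. Downstream, of 21 JAK, STAT, SOCS and PIM genes 17 were tested, 9 rose (52.9%, against 8.60% of all features) and 0 fell, with a median of 0.77. PIM3, a survival kinase, rose by 1.96 ± 0.20, STAT5A, the transducer of IL-2 signals, by 1.78 ± 0.20, and SOCS1, a feedback inhibitor, by 1.53 ± 0.12. CISH, a feedback inhibitor that STAT5 induces, read 1.58 and 1.52 in FNV and 2.14 and 2.39 in FKN.

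Of 30 helper and memory lineage factors 26 were tested, 8 rose and 2 fell, with a median of 0.22. The rises were 30.8% of the members against 8.60% of all features, and the falls 7.69% against 10.5%. GFI1, a repressor linked to Th2 cell growth, read 2.23 and 2.29 in FNV and 2.55 and 2.54 in FKN. PRDM1, the terminal differentiation factor, rose by 2.14 ± 0.71, ID2 by 2.01 ± 0.60 and IRF8 by 1.97 ± 0.77, and all 3 were higher in FKN on each array. ID3, an inhibitor of E proteins, fell, at -1.96 and -1.86 in FNV and -2.98 and -2.79 in FKN, and LEF1, a factor of naive and memory cells, fell by 0.93. FOXP3, the regulatory T cell factor, stood at a mean of 0.00 and did not pass.

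Inducible brakes on signalling included 4 rises and 1 fall among 17 tested of 24 phosphatase, RGS and Sprouty genes. The shares were 23.5% and 5.88%, against 8.60% and 10.5% of all features. RGS1, which blunts chemokine receptor signals, was almost equal on all arrays, at 2.26 and 2.30 in FNV and 2.20 and 2.26 in FKN. DUSP4 rose by 2.25 ± 0.08, DUSP5 by 2.02 ± 0.53 and PTPN2, a phosphatase of JAK kinases, by 1.48 ± 0.19. The other DUSP4 probe read 0.86 and did not pass. RGS14 fell by 1.70. DUSP6, the ERK phosphatase, had opposite signs in FNV and FKN and did not pass. The list median was -0.02 in FNV and 0.75 in FKN. Of 17 cytotoxic granule genes 16 were tested, and 1 rose and 1 fell, each 6.25% of the members, below the shares of all features (8.60% and 10.5%). GZMB, a granzyme, had 1.68 and 1.65 in FNV and 2.07 and 1.93 in FKN, and GZMK, another granzyme, fell by 0.89.

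Interferon-gamma targets and type I interferon-stimulated genes gave different counts. Of 20 interferon-gamma targets 16 were tested, 11 rose (68.8%, against 8.60% of all features) and 0 fell, with a median of 1.11. CXCL9, CXCL10, CXCL11 and SOCS1 among these rises were also counted in the chemokine list or the JAK, STAT, SOCS and PIM list. CXCL9, counted among the 11, was tested through its stimulated channels alone; of the other 15, 10 rose. GBP1, a guanylate-binding protein, read 2.98 and 2.89 in FNV and 3.07 and 2.87 in FKN (mean 2.95 ± 0.03). Of 25 type I interferon-stimulated genes 23 were tested and 1 rose (4.35%, against 8.60% of all features). This was IFI27, at 1.57 and 1.61 in FNV and 0.72 and 0.70 in FKN. In 12 of the 23 the sign differed between FNV and FKN, and the response was higher in FNV in 18. The unstimulated level was higher in FKN in 20 of the 23.

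Most ribosome biogenesis genes rose at 4 hours. Of 35 listed 30 had a probe, all 30 were tested, 28 rose (93.3%, against 8.60% of all features) and 0 fell. The median was 1.26 (1.22 in FNV, 1.21 in FKN). DDX21, a nucleolar helicase, rose by 2.51 ± 0.39, RRP12 by 2.16 ± 0.33, the nucleolar GTPase GNL3 by 1.77 ± 0.15 and WDR12 by 1.68 ± 0.55. The smallest member, at 0.33, was still positive. Of 35 genes of the cytosolic ribosomal proteins 15 had a probe and were tested, and 0 passed in limma, with values from -0.26 to 0.08. Of 27 chaperone genes 25 were tested, 17 rose (68.0%, against 8.60% of all features) and 0 fell, with a median of 0.82. HSPD1, the mitochondrial chaperonin, rose by 1.52 ± 0.35 and HSPA8, the constitutive cytosolic chaperone, by 1.50 ± 0.14. HSP90AB1 and CCT5 each rose by 1.45.

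Of 28 nutrient transport and amino acid genes 26 were tested, 10 rose (38.5%, against 8.60% of all features) and 0 fell. The median was 0.43 in FNV and 0.98 in FKN. SLC16A1, a lactate transporter, read 1.99 and 2.17 in FNV and 2.57 and 2.70 in FKN. MTHFD2, a folate enzyme of mitochondria, rose by 2.25 ± 0.17. PSAT1, which makes serine, rose by 2.18 ± 0.48. TFRC, the transferrin receptor, read 1.04 and 0.94 in FNV and 2.57 and 3.12 in FKN and passed narrowly (adjusted p = 0.0473). Of 19 glycolysis genes 18 were tested, 3 rose and 3 fell (16.7% each, against 8.60% and 10.5% of all features). LDHA rose by 1.33, PFKP by 1.11 and PGK1 by 0.80, while the isoenzyme genes ENO2, ALDOC and PFKL fell by 1.93, 0.92 and 0.51. Of 25 genes of cholesterol handling 22 were tested, 6 rose (27.3%, against 8.60% of all features) and 2 fell (9.09%, near the 10.5%). The regulator SREBF1 rose by 1.57, SC5DL by 1.00 and HMGCS1 by 0.91, while the efflux pump ABCG1 fell by 1.31 and PMVK by 0.83.

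Of 20 G1 cyclins and inhibitors 16 were tested, 4 rose, 3 fell and 9 did not pass. The shares were 25.0% and 18.8%, against 8.60% and 10.5% of all features. CCND2, cyclin D2, read 3.33 and 3.37 in FNV and 2.32 and 2.11 in FKN (mean 2.78 ± 0.80), GADD45B rose by 2.31 ± 0.30, CDK6 by 1.57 ± 0.11 and CDK4 by 0.58. The inhibitors CDKN2D and CDKN1B fell by 1.45 and 1.33, and cyclin D3, CCND3, fell by 1.12. Both inhibitors are also counted in the quiescence list below. Of 24 genes of DNA replication and mitosis 17 were tested, 0 rose and 2 fell by the limma test, CENPF by 1.00 and AURKA by 0.48, and the median was -0.11. The falls were 11.8% of the members, near the 10.5% of all features. Of 21 BCL2 family and death genes 18 were tested, 4 rose (22.2%, against 8.60% of all features) and 2 fell (11.1%, near the 10.5%). The survival gene BCL2A1 rose by 2.07 ± 0.13, the death receptor FAS by 1.63 ± 0.12, the pro-death BCL2L11 by 1.05 and the caspase-8 inhibitor CFLAR by 0.99, while BAD and MCL1 fell by 0.82 and 0.56. The other BCL2L11 probe read 0.04, and the other MCL1 probe pointed up.

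Genes that hold T cells at rest were the list with the most falls. Of 26 quiescence and PI3 kinase brake genes 23 were tested, 9 fell and 3 rose, with a median of -0.40. The falls were 39.1% of the members, against 10.5% of all features. The share of all features that rose was 8.60%. PIK3IP1 read -2.32 and -2.50 in FNV and -3.16 and -3.34 in FKN (mean -2.83 ± 0.59, adjusted p = 0.0111). TSC22D3 (GILZ), a glucocorticoid-induced gene, read -2.33 and -2.59 against -2.67 and -2.83. PDCD4, a translation inhibitor, fell more in FNV, at -2.83 and -2.53 against -1.53 and -1.20. SATB1, a chromatin organiser, rose by 1.68 ± 0.14, and SESN3 and BTG1 rose by 0.71 and 0.65, against the name of the list. Of 24 chemokine and homing receptors 17 were tested, 1 rose and 4 fell (5.88% and 23.5%, against 8.60% and 10.5% of all features). PTGDR2, the prostaglandin D2 receptor of Th2 cells, read -2.61 and -2.52 in FNV and -2.87 and -3.11 in FKN. S1PR4 fell by 1.99 and CXCR3, the receptor for CXCL9 to CXCL11, by 1.41, and its other probe read -0.48 and did not pass. GPR183, an oxysterol receptor that guides T cells in lymphoid tissue, rose by 0.74.

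The largest falls lay mostly outside the lists. CALHM2 read -3.08 and -3.02 in FNV and -3.56 and -3.55 in FKN (mean -3.30 ± 0.36, adjusted p = 0.011). CSPG5, a proteoglycan gene, read -2.02 and -2.55 against -4.10 and -3.94, and TMEM204, a membrane protein gene, -2.15 and -2.24 against -3.62 and -3.72. In both genes FKN was lower on each array. SYTL2, which tethers secretory vesicles, read -2.12 and -2.46 in FNV and -3.27 and -3.50 in FKN. ACCN2 had a mean of -2.64 ± 0.40 and HTRA1, a serine protease gene, one of -2.64 ± 0.61. Only CD79B, of the B cell receptor, fell more in FNV among the 10 largest falls, at -3.34 and -3.02 against -2.81 and -2.51 in FKN.

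**Figure D3:**
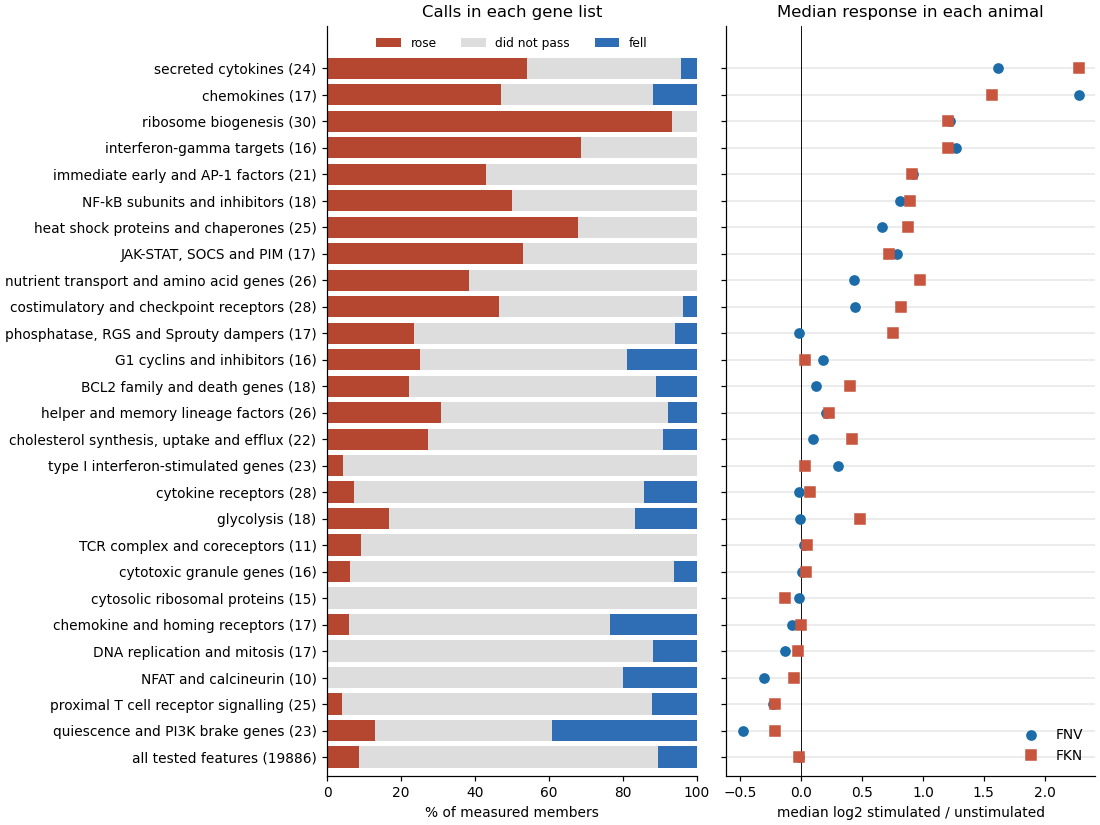
For 26 gene lists and all tested features, the left panel gives the percentage of measured members (number in brackets) that rose, did not pass or fell in the limma test, and the right panel the median log2 ratio of stimulated over unstimulated RNA in FNV and FKN. Ribosome biogenesis has the highest share of rises, quiescence and PI3 kinase brake genes the highest share of falls, and the medians of the animals are furthest apart for dampers, chemokines, secreted cytokines, nutrient genes and glycolysis.

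Markers of the gate and of other blood cells were read on the same arrays. CD3D, CD3E and CD3G were well above background in all 4 channels of each condition. CD4, which the isolation removed, was also above background, at a level (log2 normalised intensity) of 9.39 in FNV and 9.15 in FKN unstimulated, and CD8B stood at 7.76 and 7.39. Levels of different probes are not comparable, and CD8A and TRDC were not analysed here. All 14 monocyte markers were tested. Of these, 8 fell (57.1%, against 10.5% of all features) and 0 rose, and the other 6 did not pass. CSF1R, the receptor for macrophage growth factor, read -2.16 and -1.98 in FNV and -1.21 and -1.02 in FKN, and CD14 read -1.45 and -1.47 against -0.92 and -0.92. In FNV all 14 were lower after stimulation, 11 of them by 2-fold or more, and in FKN 13 were lower, 3 by that much. Before stimulation all 14 had a higher level in FNV than in FKN, with means of 11.48 and 9.41; the means in FBR and FTV were 9.01 and 9.47. Fewer cells of a type and less RNA per cell cannot be told apart in such bulk samples.

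Of 13 B cell markers 7 were tested and 2 fell (28.6%, against 10.5% of all features), CD79B and MS4A1 (-0.99). All 7 had a higher unstimulated level in FNV than in FKN. Of 10 NK cell markers 6 were tested and 1 fell (16.7%, against 10.5% of all features), SPON2 (-1.25). Of 8 dendritic cell markers 4 were tested and 0 passed in limma; LILRA4, of plasmacytoid cells, read -2.10 and -1.87 in FNV and -0.69 and -0.65 in FKN. Platelet markers (4 tested of 7) and red cell markers (3 tested of 7) had no member that passed, and the mean red cell marker level before stimulation was 9.80 in FNV and 11.63 in FKN. The part of these cells in the falls above was not tested.

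Some genes responded in 1 of the animals or in opposite directions. Features whose response differed by more than 1 between FNV and FKN numbered 808 (4.06%), while the arrays of 1 animal differed by more than 1 for 51 features in FNV and 43 in FKN. The 8 named genes with the largest difference each way are described, without a test because each side is 1 animal. Of these 16, 9 had opposite signs. TNFRSF21, death receptor 6, read -2.69 and -2.88 in FNV and 0.30 and 0.23 in FKN. LMNA, the nuclear lamin, read -0.88 and -0.64 against 1.89 and 2.15, and FABP5, a fatty acid carrier, -1.25 and -1.23 against 1.20 and 1.55. DUSP6 read -0.36 and -0.35 against 1.99 and 2.08. SIPA1L2, a GTPase activator for Rap, averaged -0.90 in FNV and 1.51 in FKN.

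The levels show where these differences lay. TNFRSF21 had an unstimulated level of 11.03 in FNV and 7.20 in FKN, and after stimulation 8.25 and 7.47. FABP5 started at 13.74 in FNV and 10.55 in FKN and reached 12.50 and 11.93. Of the 8 genes whose response was lower in FNV, 6 had the higher unstimulated level in FNV. Among the 8 whose response was higher in FNV, 3 did. The response contains the unstimulated level of the same arrays. Choosing genes by it favours this order, so the counts are no separate evidence. Monocyte markers were also higher in FNV before stimulation, and the part of other cells was not tested. IL13 and PDGFA, a platelet-derived growth factor, were the exceptions among the genes with the lower response in FNV. IL13 started at 6.73 and 6.80 and reached 7.87 in FNV and 10.33 in FKN. The ratio of a dim probe is drawn toward 0 by the offset of 50 added to each signal, and FNV had the dimmer arrays. The FNV minus FKN difference of IL13 was -2.39 with this offset, -1.43 with an offset of 0 and -0.01 in the scanner software's own ratio, and that of PDGFA was -2.16, -0.98 and -0.03, so for these dim genes the difference depends on how background is treated. For TNFRSF21 it was -3.05, -3.77 and -4.05, and for FABP5 -2.62, -2.63 and -2.64.

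In the other direction, RGS8, a regulator of G protein signalling, read 2.45 and 2.21 in FNV and 0.02 and -0.32 in FKN. CHAC1, which degrades glutathione under amino acid stress, read 3.24 and 3.32 against 1.02 and 1.23; its unstimulated level was 8.36 in FNV and 10.81 in FKN, and its stimulated levels were near, 11.64 and 11.93. The interferon-stimulated genes IFIT1 and IFIT2 read 0.79 and 0.72, and 0.72 and 0.63, in FNV, against -1.33 and -1.35, and -1.94 and -1.55, in FKN. REC8, a cohesin subunit, also had opposite signs, 0.91 and 0.54 against -1.07 and -1.25. SMAD7, which restrains TGF-beta signals, fell in the joint test (adjusted p = 0.0385), with -1.04 and -1.37 in FNV and -3.16 and -3.12 in FKN. CR2, the complement receptor, read -0.65 and -0.89 against -3.21 and -3.27 and did not pass. For all 16 genes the mean of FBR and FTV was nearer to FKN than to FNV. The self-self arrays put FNV and FKN in the same order for all 16.

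**Figure D4:**
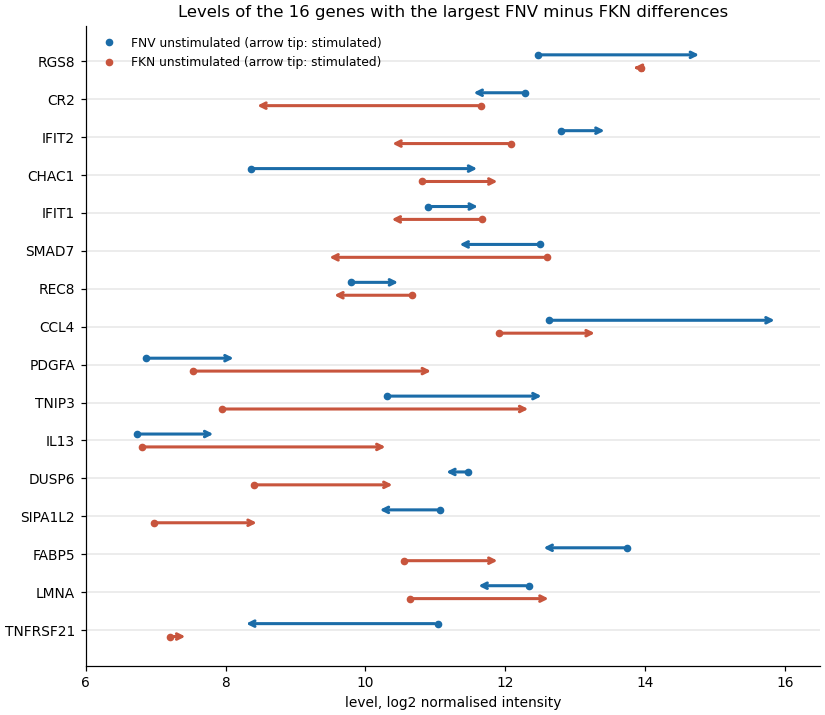
Levels (log2 normalised intensity) before stimulation (dot) and after it (arrow tip) in FNV (blue) and FKN (red) for the 16 genes with the largest differences in response. TNFRSF21 and FABP5 start far higher in FNV and fall there, CHAC1 starts lower in FNV and ends near the level of FKN, and IL13 starts at a like level in both.

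The self-self arrays, which hold 1 RNA in both channels, gave a second reading of the same RNA samples as the difference between an animal's stimulated and unstimulated arrays. It correlated across features with the ratio arrays at 0.95 in FKN and 0.78 in FNV. The sign was the same for 3795 of 3799 features that passed in FKN and for 3771 of 3800 in FNV. IL5 read 5.66 and 5.16 on this measure in FNV and FKN, IL22 5.31 and 4.58, and CALHM2 -3.55 and -3.49. The stimulated self-self array of FNV was the dimmest of the series, with 33.3% of spots well above background in Cy3 and 37.6% in Cy5.

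The last comparison asked whether the response differed in the animals labelled CD4-low. In limma 0 of 19886 features (0%) passed for CD4-low minus CD4-normal, with 414 (2.08%) at an unadjusted p under 0.05 and a smallest adjusted p of 1, so no difference passed with 2 animals against 2. The values of the 4 genes each way with the smallest p follow as descriptions. EDN1 stood at 3.45 and 3.29 in FNV and FKN and at 1.54 and 1.52 in FBR and FTV, a difference of -1.84 (95% interval -2.21 to -1.46, unadjusted p = 8.2e-05, limma). KCNJ2, an inward rectifier potassium channel, had means of 2.19 ± 0.33 in the CD4-normal and 0.70 ± 0.04 in the CD4-low animals, a difference of -1.48 (-2.02 to -0.95). DHRS9, a retinol dehydrogenase, differed by -0.89 and SESN2, a stress-induced sestrin, by -0.92; SESN2 was near 0 in the CD4-normal animals (mean -0.05) and lower in the others (-0.96).

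IL2 had the largest of these 8 differences. It stood at 3.61 and 2.99 in FNV and FKN and at 6.44 and 5.29 in FBR and FTV, a difference of 2.57 (95% interval 1.38 to 3.75). Its unadjusted limma p was 0.00291. The unstimulated levels of IL2 were 7.73 in both FNV and FKN, 7.32 in FBR and 6.69 in FTV, and the stimulated ones 11.34, 10.72, 13.76 and 11.98. TNFSF11 (RANKL), a tumour necrosis factor ligand, differed by 1.47 (0.85 to 2.09). C19H19ORF59 and CLEC4A, a lectin of myeloid cells, fell in the CD4-normal animals, by 1.55 and 1.65, and read -0.24 and -0.43 in the CD4-low animals. The median response of monocyte markers was -1.40 in FNV, -0.77 in FKN, -0.35 in FBR and -0.38 in FTV, and their part in these differences was not tested. For the 3 largest rises the difference was 0.57 for IL5 (-0.48 to 1.63), 0.52 for IL22 (-0.43 to 1.48) and 0.35 for IFNG (-1.11 to 1.82), with unadjusted limma p of 0.218, 0.214 and 0.555. These intervals leave room for a difference of over 2-fold either way only for IFNG, and for one in favour of the CD4-low animals for all 3.

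**Figure D5:**
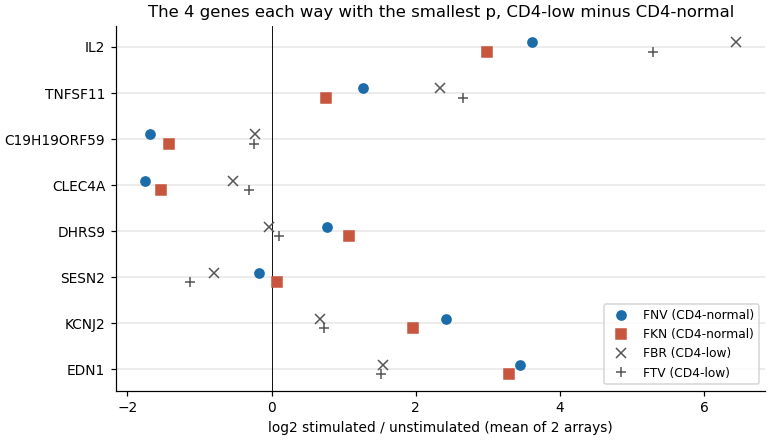
Log2 ratio of stimulated over unstimulated RNA, mean of 2 arrays, in FNV and FKN (CD4-normal) and FBR and FTV (CD4-low) for the 4 genes each way with the smallest p of the difference. EDN1 and KCNJ2 are higher in both CD4-normal animals and IL2 and TNFSF11 higher in both CD4-low animals, and none passed after adjustment over all features.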

How the data were processed

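Members, gene lists and tests were chosen with earlier results of these data known. The authors deposited spot and background intensity per array, and a log10 ratio of red over green, both from Agilent Feature Extraction per the file headers, and a table of log2 ratios per animal, whose method the sources used here leave unstated; limma is named in the submitters' processing notes. Labelled cRNA had been hybridised to a rhesus macaque array with 2 colours, Cy3 in channel 1 and Cy5 in channel 2 per the labels. Intensities were corrected here with normexp (offset 50) and loess in limma 3.58.1 under R 4.3.3, outlier spots (at most 51 per array) were left out, and no spot was saturated. Ratios were turned to stimulated over unstimulated and averaged per animal. A feature was tested where, in FNV and in FKN, both ratio arrays flagged it as well above background in the channel of a condition; 1 probe per symbol, the brightest, was used, and every probe without a symbol. Of 43603 probes, 19383 had a symbol. The 2 editions of the annotation name 8125 probes differently, and the newer was used where it gave a symbol. The older edition gave the symbol of 534 probes by gene name, SYTL2 and PLCG1 among them, and of 65 by description. A list of aliases gave that of 99, BATF3 and DGKZ among them.

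lmFit and eBayes were run on the 4 per-animal ratios, with CD4-normal and CD4-low means, Benjamini-Hochberg adjustment over all features and a threshold of 0.05. Pairing is by animal, since stimulated and unstimulated cells came from the same animal. Levels were taken after Aquantile normalisation between arrays. The fit was tested on simulated data. Precision is limited by the number of arrays and animals. The text names, among features with a symbol, the 15 largest rises and 10 largest falls that passed with 1 sign in all 4 arrays; per list at most 4 rises and 3 falls; the 8 largest FNV minus FKN differences each way among genes whose arrays differed by under 0.5 in each animal; the 4 smallest p each way for CD4-low minus CD4-normal; and the marker genes. JUN and FOS were named after their values were seen. The 32 lists held 680 genes, of which 595 had a probe and 552 were tested. Of the 680, 11 stood in more than 1 list, so the counts of different lists are not all separate. The alternatives tried are listed in the closing section. Python 3.11.15 and matplotlib 3.10.9 drew the figures. Values of some list members are not reported here.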

Additional observations from a re-analysis of the deposited data

Results flagged for a closer look

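CXCL1, a neutrophil chemokine gene, had opposite signs by CD4 status: all 4 arrays of FNV and FKN were below 0 (means -0.48 and -0.82) and all 4 of FBR and FTV above it, but by little (means 0.05 and 0.22). CXCL1 fell less in FNV than in FKN. The median response of monocyte markers was -1.40 in FNV, -0.77 in FKN, -0.35 in FBR and -0.38 in FTV, and their part in the difference was not tested. The CD4-low minus CD4-normal difference was 0.79 (95% interval 0.31 to 1.27), with an unadjusted limma p of 0.00883 and an adjusted p of 1. It was looked for among the named genes only. No group had 4 animals, so no animal could be tested for standing apart from its group.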

How the results depend on the processing

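All 3801 features that passed kept their direction under each alternative to the normalisation, filter, probe or samples that gave them a value, except 2 on the self-self arrays and 1 in the authors' deposited log2 ratios. The direction could not change with FNV and FKN only, without FBR or FTV, under the filter and probe settings or with no replicate block. Those fits keep the same mean of FNV and FKN and change only its test. The count of passing features moved by over 1.5 times in these cases: 1354 with FNV and FKN only, a range of 1354 to 3891 when each animal was left out in turn, 514 with median centring, and 0 with no replicate block, that is, without pairing by animal. Of the 3801, 511 still passed with median centring, 1335 with FNV and FKN only and 1803 without FKN; the lone animal of a group is then assumed to vary like the others, and the causes were not tested. Other settings gave between 2748 (no filter on dim probes, more features tested) and 4889 (offset 0); the self-self arrays with the replicate block gave 2766, the scanner software's ratio 4787 and the authors' deposited ratios 3571. The scan batch as a term gave 3891, the same fit as without FNV. For CD4-low minus CD4-normal 0 passed under each alternative, with 14 to 2877 at an unadjusted p under 0.05. Of 133 named passing genes, 41 no longer passed with FNV and FKN only, 76 with median centring, 14 without FNV and 28 without FKN. The 16 differences between FNV and FKN kept their sign under each of 6 alternatives with a value. FNV had the dimmer ratio arrays, and the part of this in the values of its dim genes was not tested.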
